A study of Drosophila melanogaster with 8 samples.

Results

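The genes of the cytosolic ribosomal proteins were examined in fat body RNA of adult Drosophila melanogaster females. They were chosen by symbol, as every gene whose name starts with RpL or RpS and a digit, every RpLP gene and sta, which gave 93 of 17411 genes. Of these, 79 were taken as the main genes of the ribosome, 47 of the large and 32 of the small subunit. A further 11 were second copies (paralogs) of a main gene, and 3 were related factors whose names end in -like (RpL7-like, RpL24-like and RpLP0-like). Libraries were made from cuticle with the fat body attached, from females 1 week old. In the 9G8 RNAi group (n = 4) yolk-Gal4, which drives expression in the adult female fat body, was combined with a hairpin against 9G8, a splicing factor of the SR family whose gene is x16. In the control group (n = 4) yolk-Gal4 was carried over w1118 with no hairpin, so both genotypes carried the driver, and the hairpin insertion and strain background cannot be told apart from any effect on 9G8 itself. Nothing in the labels states that replicate libraries stem from independent rearings, and p-values therefore cover the spread among these 8 libraries, which may be technical.

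A ribosome holds a large and a small subunit, each built from ribosomal RNA and many different proteins that are needed in matched amounts. In flies, loss of a single gene copy of many of these proteins slows development, the Minute phenotype. The genome also holds second copies of some of them, several of which are known in Drosophila for expression in the ovary or testis rather than in the body. RpLP0, RpLP1 and RpLP2 form the stalk of the large subunit that recruits elongation factors.

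The 9G8 RNAi libraries held 25396063 to 36181492 counts and the controls 27946556 to 34750635. Levels are given as CPM, counts scaled to a common library total, with TMM factors, which correct for libraries of unequal composition. The target, x16, was at 198.6, 34.7, 103.1 and 49.5 CPM in 9G8 RNAi libraries 1 to 4, against 60.4, 65.6, 325.5 and 145.1 CPM in control libraries 1 to 4. The groups overlapped, so a lower level of the target was not shown. The labelled tissue was checked by 8 fat body genes, whose summed level was 11971 to 20402 CPM in 9G8 RNAi and 6703 to 10647 CPM in controls, and none was at 0 in all 8 libraries. They did not move together, since Yp2 rose (log2 fold change 1.60, edgeR adjusted p = 0.049), Lsp2 fell (-2.53, edgeR adjusted p = 0.0224) and the other 6 did not pass. Genes of other tissues were present as well. The 6 gut enzyme genes summed to 14752 to 39449 CPM in 9G8 RNAi and 158.1 to 17576 CPM in controls, and 12 germline genes summed to 79.9 to 459.6 CPM in 9G8 RNAi and 11.3 to 445.0 CPM in controls. The 10 eggshell genes spanned 39.6 to 8289 CPM in 9G8 RNAi and 14.6 to 8542 CPM in controls. The 7 muscle genes summed to 687.0 to 1607 CPM in 9G8 RNAi and 774.2 to 1725 CPM in controls, and the 4 hemocyte genes to 44.7 to 87.5 CPM in 9G8 RNAi and 83.7 to 238.5 CPM in controls. Among the genes of other tissues only Pxn, of the hemocyte list, passed, and it fell (log2 fold change -1.54, edgeR adjusted p = 0.0465). No gene of these lists was at 0 in all 8 libraries. In bulk samples like these, fewer cells of a type and less RNA per cell cannot be told apart.

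Library 9G8 RNAi 2 stood apart in these genes. The median main ribosomal protein gene was at 3010, 1544, 3569 and 3787 CPM in 9G8 RNAi libraries 1 to 4, against 3008, 3132, 2907 and 2250 CPM in the controls. Library 9G8 RNAi 2 was thus the lowest by this median, and it was the lowest 9G8 RNAi library in 71 of the 79 main genes and the lowest of all 8 libraries in 54. Its TMM factor was also the highest, at 1.54, against 0.758 to 1.2 in the other 7 libraries. CPM are divided by this factor, which lowers every gene of this library, so part of the gap comes from the scaling. By share of all counts on the 93 genes it held 21.0%, the lowest in 9G8 RNAi, while control 1 held 20.8%. The gap was deepest in short genes. For the 27 main genes with 288 to 777 exon bases, 9G8 RNAi 2 held a median of 0.431 times the mean of the other 9G8 RNAi libraries, for the 26 with 788 to 1119 bases 0.459 times, and for the 26 with 1133 to 3835 bases 0.566 times. Across the 79 main genes, exon length and this deviation had a Spearman correlation of 0.54, as a description over genes that share 1 library. Mean CPM and the deviation had a correlation of -0.59, so the more abundant genes also lay lower in this library.

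**Figure D1:**
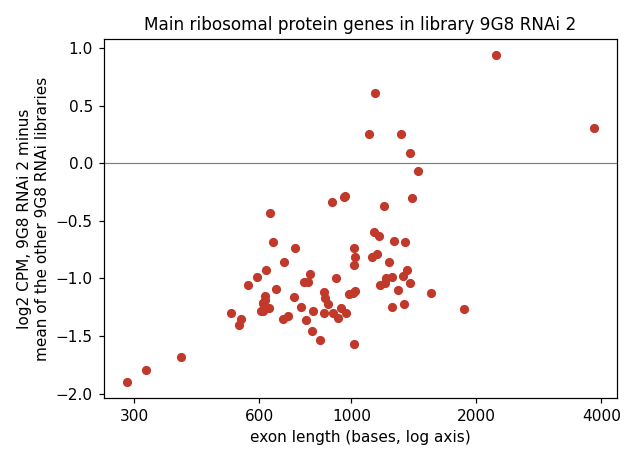
Each point is 1 of the 79 main ribosomal protein genes, with exon length in bases on a log axis and, on the vertical axis, log2 CPM in library 9G8 RNAi 2 minus the mean of the other 3 9G8 RNAi libraries. Most points lie below 0, and the shortest genes lie lowest.

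Together the 93 genes took 28.6%, 21.0%, 27.6% and 23.7% of all counts in 9G8 RNAi libraries 1 to 4, against 20.8%, 21.7%, 24.7% and 22.2% in the controls. Their mean share was 25.2% ± 3.52 in 9G8 RNAi and 22.3% ± 1.65 in controls (SD, n = 4 each), and the groups overlapped. Mitochondrially encoded genes took 12.9% to 18.0% of counts in 9G8 RNAi and 11.6% to 14.0% in controls. With those genes left out the share was 30.2% ± 4.70 in 9G8 RNAi and 25.6% ± 1.77 in controls. The large and small subunits kept close to a fixed balance. The summed level per length of the main large subunit genes over that of the small was 1.66 ± 0.0647 in 9G8 RNAi and 1.6 ± 0.0585 in controls.

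Levels of different genes were compared per length, as CPM per kilobase of exon (CPM per kb). The median main gene was at 3329 CPM per kb as a mean over both genotypes, and 52 of the 79 main genes lay within 2-fold of it. Over all main genes the levels spanned 124.2-fold, and the 90th percentile was 8.13 times the 10th. At the top was RpL41, the shortest protein of the ribosome, at 19202 ± 8718 CPM per kb in 9G8 RNAi and 19836 ± 1460 in controls. RpLP2, a stalk protein, followed at 11928 ± 4303 CPM per kb in 9G8 RNAi and 10405 ± 823.6 in controls. RpL27A came next at 10550 ± 3792 CPM per kb in 9G8 RNAi and 9231 ± 1197 in controls. RpLP2 and RpL27A differed by less than their SDs in 9G8 RNAi, and RpL41 stood clear of both in the controls. RpL23 (9032 CPM per kb over both genotypes) and RpL13A (8314) completed the 5 highest. Among the main genes the lowest as a mean over both genotypes was RpL28 (157.2 CPM per kb), at 194.1 ± 8.91 CPM per kb in 9G8 RNAi and 120.3 ± 17.7 in controls. RpL3 (188.3 CPM per kb over both genotypes), RpS7 (259.6) and RpL5 (271.5) were the next lowest main genes. Exon length and level per length had a Spearman correlation of -0.58 across the 79 main genes, as a description. The level per length is divided by that same exon length, so a negative correlation is favoured by construction. Of the main genes, 56 were above 1000 CPM in all 8 libraries. The other 4 of the 5 lowest members tested were RpS19b (1.92 CPM per kb), RpL37b (13.1), RpLP0-like (94.1) and RpS15Ab (119.4), which are second copies or related factors.

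The comparison of 9G8 RNAi with control asks which of these transcripts differ when a splicing factor is targeted in the fat body. Of the 93 genes, 87 passed the filter on low counts and were tested among 9846 genes. At an adjusted p under 0.05 (edgeR quasi-likelihood test, Benjamini-Hochberg over all 9846), 1 rose (RpL37b), 0 fell and 86 did not pass. That is 1.15% of those tested, against 3.21% of all genes tested (0.995% higher and 2.21% lower). At an unadjusted p under 0.05, 5 of the 87 passed (5.75%), against 12.9% of all genes, and the only lower call by another tool was RpL9 with DESeq2. In 5 of the 87 (5.75%) the libraries of the genotypes did not overlap in CPM, against 8.73% of all genes: RpL37b, RpL28 and RpS7 were higher in all 9G8 RNAi libraries, and RpL9 and RpL30 lower. The shares in either direction were thus below the background by each of these rules, and the share called higher was near it.

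The median log2 fold change (9G8 RNAi over control) was 0.12 over the 87 and 0.01 over all genes tested. It was 0.19 for the large and 0.10 for the small subunit. Of the 87, 63 had a positive value (72.4%), against 50.8% of all genes. Without library 9G8 RNAi 2 the median was 0.31 and without library 9G8 RNAi 4 it was 0.00, so its distance from 0 changed with single libraries. Log2 fold changes of the main genes ran from -1.29 to 0.78, with 70 of 79 within 0.5 of 0 and 78 within 1. By exon length the medians were 0.11 for the short, 0.10 for the middle and 0.29 for the long class, and 0.29, 0.28 and 0.42 without library 9G8 RNAi 2.

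**Figure D2:**
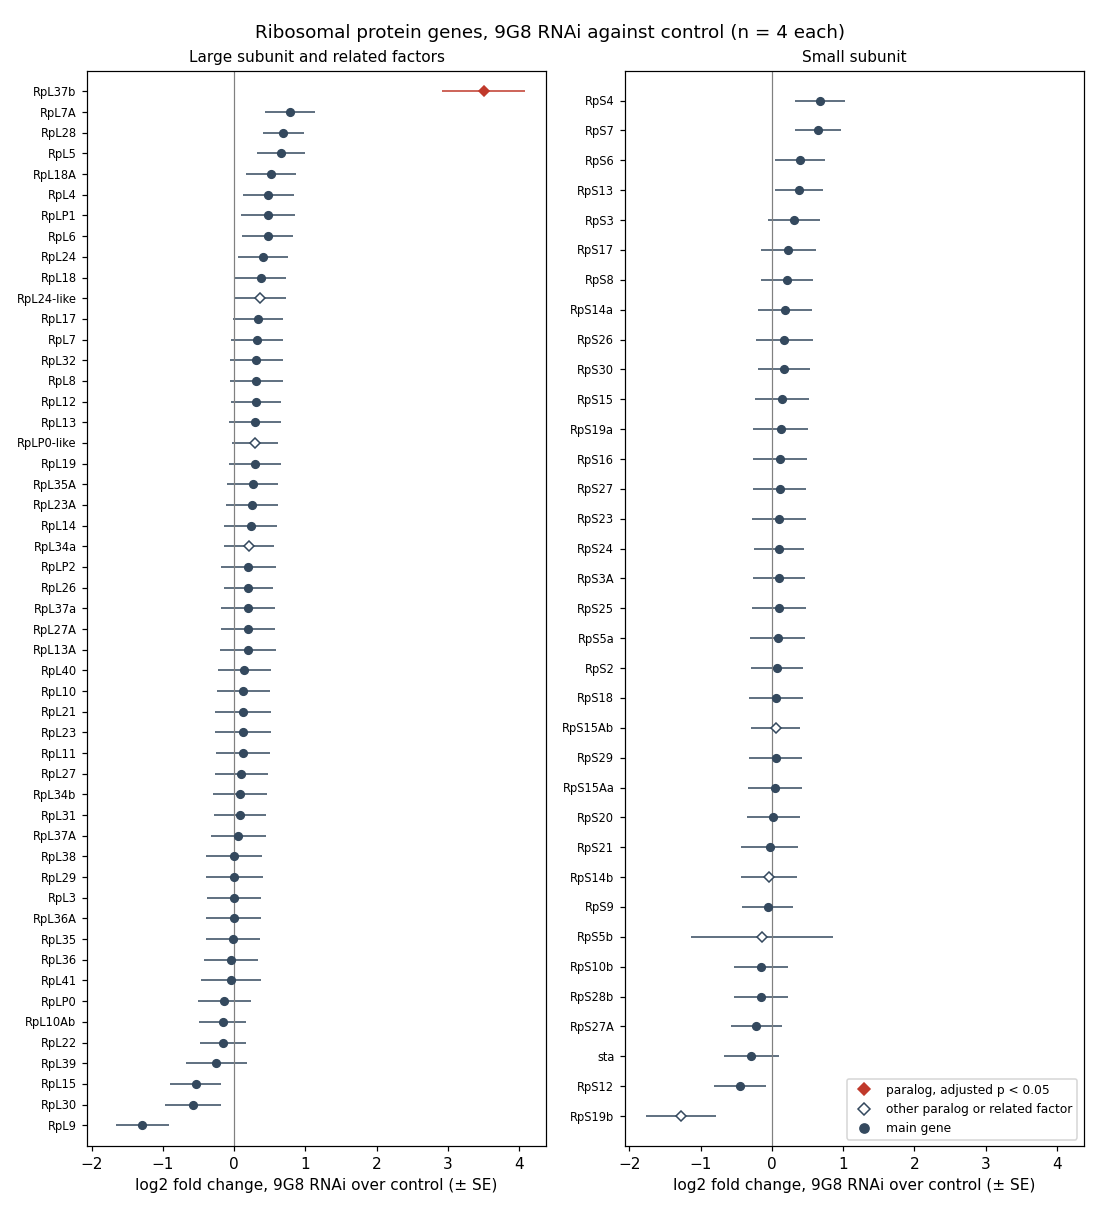
Log2 fold change (9G8 RNAi over control, n = 4 libraries each) with its SE for 86 of the 87 ribosomal protein genes tested, by subunit. Filled circles are main genes, open diamonds paralogs and related factors, and the red diamond is RpL37b, which is at 3.50 while the main genes lie between -1.29 and 0.78.

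RpL37b, the second copy of the gene for the large subunit protein RpL37, lies at 2R:23100057-23100478 on the minus strand (BDGP6) as a single exon of 422 bases. It drew 312, 131, 306 and 388 counts in 9G8 RNAi libraries 1 to 4, against 29, 29, 25 and 23 counts in the controls. In CPM these were 7.54, 2.83, 9.99 and 20.2 in 9G8 RNAi, against 1.15, 1.05, 0.700 and 0.686 in controls. Every 9G8 RNAi library was above every control. The mean was 10.1 ± 7.32 CPM in 9G8 RNAi and 0.896 ± 0.238 CPM in controls, a log2 fold change of 3.50 (SE 0.58, 11.3-fold; edgeR adjusted p = 0.00644). The controls differed little among themselves, and the spread lay in the 9G8 RNAi libraries, which ran 2.83 to 20.2 CPM.

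The main copy, RpL37a (newer symbol RpL37-1, on X), did not move with it. It was at 3175, 1862, 4147 and 4808 CPM in 9G8 RNAi, against 3450, 3521, 3055 and 2223 CPM in controls, with overlapping groups and a log2 fold change of 0.19 (SE 0.38, edgeR adjusted p = 0.942). RpL37b therefore made up a small share of the pair in both genotypes. By level per length it was 0.724%, 0.464%, 0.734% and 1.27% of the pair in 9G8 RNAi, against 0.102%, 0.0916%, 0.0703% and 0.0947% in controls. The log2 ratio of RpL37b to RpL37a was higher by 1.74 in 9G8 RNAi (two-sided exact permutation test, p = 0.0286, the smallest that 4 against 4 libraries allow; adjusted p = 0.114 over the 8 pairs tested). Ratios were taken of CPM plus a prior count of 2, which understates the difference of a low gene: it was 2.53 with a prior count of 0.5 and 1.11 with a prior count of 5.

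No neighbour of RpL37b was expressed at a comparable level. The 8 annotated genes that lie within 15 kb were at most at 0.151 CPM in a 9G8 RNAi library and 0.0725 CPM in a control. The male germline, where several such copies are known to be expressed in flies, was checked by 15 genes. They summed to 4.83 to 36.5 CPM in 9G8 RNAi and 19.2 to 51.8 CPM in controls, and nearly all of this was Mst87F. That gene was at 6.12, 4.25, 8.75 and 36.4 CPM in 9G8 RNAi, against 51.5, 32.4, 25 and 18.8 CPM in controls. It was the only one that passed the filter, with a log2 fold change of -1.21 (edgeR adjusted p = 0.470). Every other gene of the list was at most at 0.168 CPM in any library, and 3 of them (Mst84Da, ocn and kl-3) were at 0 in all 8 libraries. Gut markers also differed between the genotypes. Their mean log2 CPM was 11.03, 11.30, 11.41 and 12.37 in 9G8 RNAi libraries 1 to 4, against 10.78, 9.82, 4.25 and 9.03 in controls. RpL37b was highest in the library with the highest gut score, and within each genotype the 2 orders largely matched. The exception in 9G8 RNAi was library 2, with the lowest RpL37b of its group at a gut score above that of library 1. In controls RpL37b was highest in control 1, which had their highest gut score, and only controls 3 and 4 changed places. RpL37b stayed at 0.686 to 1.15 CPM there over gut scores of 4.25 to 10.78. Other genes shared its order as well. The order of Mst87F matched that of RpL37b fully in both genotypes, and that of RpL37a did so in 9G8 RNAi. A shared order of libraries thus does not single out the gut. In a fit that took the gut score as a covariate, RpL37b had a log2 fold change of 2.99 and the call was lost (edgeR adjusted p = 0.0785). Every 9G8 RNAi gut score lay above every control score, so this fit cannot separate the gut score from the genotype. The part of the gut in the result was not tested. Whether reads of RpL37a could be counted to RpL37b was not tested, since the files give gene totals only.

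With 4 libraries against 4, a single pair cannot pass 0.05 after adjustment over 8 pairs, so adjusted p-values of the pairs do not tell them apart. RpS14a and RpS14b, known in flies to encode the same small subunit protein, lie next to each other on X (7933742 to 7934677 and 7934898 to 7935792, both plus strand). RpS14b made up 25.2%, 22.9%, 24.8% and 25.8% of the pair in 9G8 RNAi, against 29.0%, 27.2%, 27.5% and 27.8% in controls. All 9G8 RNAi libraries were below all controls, and the log2 ratio differed by -0.24 (exact permutation test, p = 0.0286, adjusted p = 0.114). How reads that match both copies were counted is not given in the sources used here, so this split is uncertain. RpL34a, the lesser copy beside RpL34b, made up 22.1% ± 1.14 of its pair in 9G8 RNAi and 20.5% ± 1.97 in controls (exact permutation test, p = 0.229, adjusted p = 0.411). RpS15Ab made up 2.40% ± 0.226 of the pair with RpS15Aa in 9G8 RNAi and 2.33% ± 0.225 in controls (exact permutation test, p = 0.629, adjusted p = 0.718).

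RpS5b and RpS19b are copies known in Drosophila for expression in the ovary. RpS5b (3R:14900432-14901563, minus strand) was at 1498, 283.2, 796.5 and 192.8 CPM in 9G8 RNAi libraries 1 to 4, against 10.9, 337.1, 1335 and 1361 CPM in controls. Its log2 fold change was -0.14 with an SE of 0.99, the widest among the 87, and an edgeR adjusted p of 0.985. It made up 40.2%, 16.7%, 20.0% and 5.27% of the pair with RpS5a in 9G8 RNAi, against 0.368%, 10.5%, 37.4% and 45.2% in controls (exact permutation test of the log2 ratio, p = 0.771). The ovarian copy thus ranged from a trace to nearly as much as the main gene among the controls alone. The germline markers varied alongside. Their mean log2 CPM was 4.36, 3.21, 2.85 and 1.46 in 9G8 RNAi and -0.59, 1.06, 3.79 and 4.04 in controls. RpS5b was lowest in the control with the lowest germline score and highest in the 9G8 RNAi library with the highest. Between these extremes the orders matched only in part. RpS5b was lower in 9G8 RNAi 2 than in 9G8 RNAi 3 and control 2, which had lower germline scores. It was also lower in 9G8 RNAi 4 than in control 2, again against the order of the scores. RpS5a, by contrast, held 3747 ± 1364 CPM in 9G8 RNAi and 3541 ± 891.4 CPM in controls. RpS19b was near the limit of what was counted, with 55, 20, 15 and 14 counts in 9G8 RNAi and 28, 41, 68 and 92 counts in controls. Its groups overlapped, at 0.745 ± 0.411 CPM in 9G8 RNAi and 1.81 ± 0.702 CPM in controls (log2 fold change -1.28, SE 0.49, edgeR adjusted p = 0.254). Its log2 ratio to RpS19a differed by -0.50 (exact permutation test, p = 0.257, adjusted p = 0.411).

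**Figure D3:**
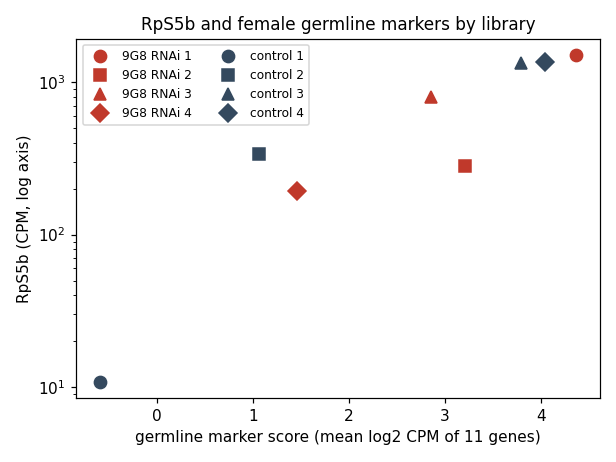
RpS5b level in CPM on a log axis against the mean log2 CPM of 11 germline markers, 1 point for each of the 8 libraries. RpS5b runs from 10.9 CPM in control 1, the lowest in germline markers, to 1498 CPM in 9G8 RNAi 1, the highest, and the genotypes overlap on both axes.

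The remaining paralogs were too low to be tested. RpS10a drew 18, 7, 5 and 0 counts in 9G8 RNAi and 0, 2, 10 and 21 in controls, and RpS28a drew 5, 4, 3 and 1 in 9G8 RNAi and 6, 2, 5 and 7 in controls. RpL10Aa drew at most 4 counts in any library, and RpL22-like, known in flies from the germline, and RpS28-like at most 2. Their main genes were abundant, with RpS10b at 3532 ± 1227 CPM in 9G8 RNAi and 3927 ± 841.1 CPM in controls, and RpL10Ab at 544.0 ± 108.7 CPM in 9G8 RNAi and 606.3 ± 135.7 CPM in controls. RpL22 was at 342.4 ± 40.2 CPM in 9G8 RNAi and 383.2 ± 108.9 CPM in controls. RpS28b, the main copy beside RpS28a and RpS28-like, was at 2254 ± 817.8 CPM in 9G8 RNAi and 2502 ± 444.8 CPM in controls.

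The paralogs, as assigned here, share features of position and exon structure. Of the 10 main genes with a paralog, 8 lie on X, against 6 of the 69 main genes without one, and 1 of the 11 paralogs (RpS14b) lies on X. A single exon makes up 5 of the 11 paralogs (RpL37b, RpS15Ab, RpS10a, RpS28a and RpL10Aa), against 1 of the 79 main genes (RpLP2). These counts describe the annotation in the files and were not tested.

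**Figure D4:**
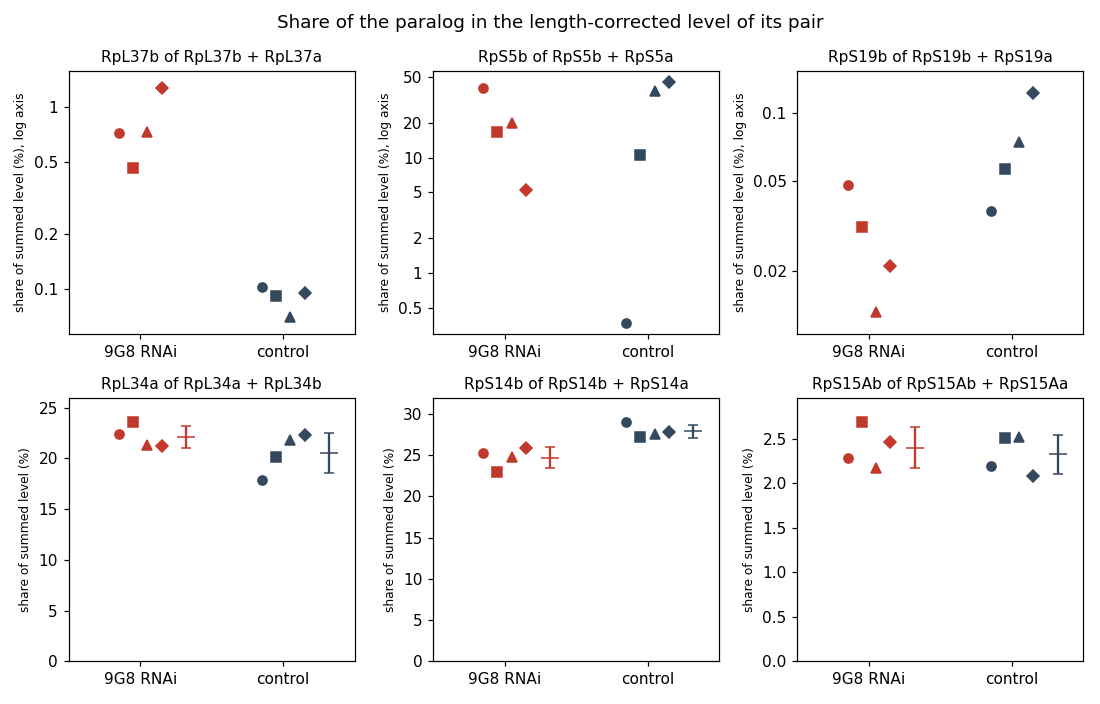
Share (%) of the paralog in the summed level per length of its pair, 1 point a library, 9G8 RNAi in red and control in blue, with mean ± SD bars (n = 4) in the lower panels; the upper panels have log axes. RpL37b is above all controls in every 9G8 RNAi library at under 1.3% of its pair, RpS5b ranges from 0.368% to 45.2%, and RpS14b is below the controls.

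The 3 related factors belong to ribosome assembly as far as their yeast counterparts show. RpL24-like, whose yeast counterpart sits on the maturing large subunit until RpL24 replaces it, was nearly as abundant per length as RpL24 itself, at 46.7% ± 4.94 of the pair in 9G8 RNAi and 48.5% ± 4.02 in controls (exact permutation test, p = 0.571, adjusted p = 0.718). RpLP0-like, whose yeast counterpart precedes the stalk protein P0, made up 2.89% ± 0.443 of its pair in 9G8 RNAi and 2.12% ± 0.547 in controls (exact permutation test, p = 0.0857, adjusted p = 0.229). RpL7-like drew at most 3 counts in a library and was not tested, while RpL7 held 2598 ± 850.9 CPM in 9G8 RNAi and 2081 ± 504.4 CPM in controls.

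Among the main genes, RpL9 of the large subunit (2L:11002758-11004189, minus strand) had the lowest log2 fold change. It was at 991.0, 407.2, 722.5 and 748.7 CPM in 9G8 RNAi libraries 1 to 4, against 1857, 2039, 1853 and 1251 CPM in controls. All 9G8 RNAi libraries lay below all controls. The mean was 717.4 ± 239.5 CPM in 9G8 RNAi and 1750 ± 343.6 CPM in controls, a log2 fold change of -1.29 (SE 0.37) that missed the threshold (edgeR adjusted p = 0.0943). Without library 9G8 RNAi 2 it was -1.12 (edgeR adjusted p = 0.101). DESeq2 gave -1.28 with an adjusted p of 0.0365, where 5.34% of all genes were called.

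Part of the spread of RpL9 was shared with the whole set, and its share within the set was tighter. Of every 1000 counts on ribosomal protein genes, RpL9 took 3.97, 2.98, 2.33 and 2.40 in 9G8 RNAi, against 7.37, 7.76, 7.73 and 6.75 in controls. With the libraries scaled to the main ribosomal protein genes, an alternative added after the data were seen, its log2 fold change was -1.35 (SE 0.19, edgeR adjusted p = 0.00865). In that fit 3.24% of all genes were called and 4 of the 87: RpL37b higher, and RpL9, RpL30 and RpS12 lower. Scaling to these genes removes variation that they share among libraries, so the 3.24% is not a like background for them. The scaling moved the median of all genes by 0.03.

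RpL30, also of the large subunit, was at 2279, 810.3, 2313 and 2089 CPM in 9G8 RNAi, against 3042, 2836, 2833 and 2498 CPM in controls, without overlap (log2 fold change -0.58, SE 0.39, edgeR adjusted p = 0.674). It took 9.12, 5.94, 7.47 and 6.69 of every 1000 ribosomal protein counts in 9G8 RNAi, against 12.1, 10.8, 11.8 and 13.5 in controls, and its log2 fold change scaled to the set was -0.74 (edgeR adjusted p = 0.0449). RpS12, a small subunit protein that flies need for the elimination of Minute cells by their neighbours, was named after its values were seen. It was at 2074 ± 724.4 CPM in 9G8 RNAi and 2836 ± 363.2 CPM in controls (log2 fold change -0.45, edgeR adjusted p = 0.796), and took 8.15 ± 0.861 of every 1000 in 9G8 RNAi and 12.1 ± 0.433 in controls (scaled log2 fold change -0.58, edgeR adjusted p = 0.0392). RpL15 took 8.08 ± 1.12 of every 1000 in 9G8 RNAi and 12.2 ± 1.21 in controls without overlap, and did not pass when scaled (log2 fold change -0.60, edgeR adjusted p = 0.0653). The same held for sta, the small subunit protein whose mutants have short antennae, with 31.0 ± 1.70 of every 1000 in 9G8 RNAi and 41.3 ± 5.90 in controls (scaled log2 fold change -0.43, edgeR adjusted p = 0.118). Unscaled, sta was at 7897 ± 2854 CPM in 9G8 RNAi and 9687 ± 1999 CPM in controls (edgeR adjusted p = 0.905). Over the 87 tested genes, shares per 1000 did not overlap in 17 (19.5%), 9 lower and 8 higher in 9G8 RNAi, against 11.4% of all genes counted the same way. These shares add up to a fixed total, so a lower share of some genes goes with a higher share of others. Division by the set's own total also removes variation that these genes share among libraries, but not that of other genes. The 11.4% is therefore not a like background for the 19.5%. By CPM the libraries did not overlap in 5.75% of the ribosomal protein genes tested and 8.73% of all genes. Lower besides the 5 above were RpS10b, RpS27A, RpS28b and RpS9. Among the higher were RpLP1, with 23.9 ± 2.19 of every 1000 in 9G8 RNAi and 18.3 ± 1.57 in controls, RpL8, RpL13, RpL14, RpL18, RpL24-like and RpL37b. Of the 17, those that passed the scaled test are RpL9, RpL30, RpS12 and RpL37b. RpL8, RpL13, RpL14, RpL18 and RpS9 were named after their values were seen.

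**Figure D5:**
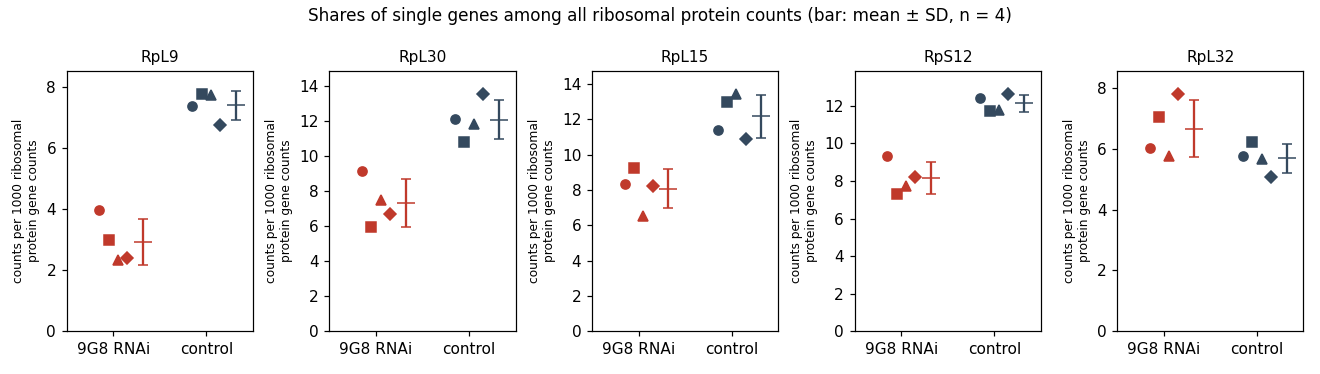
Counts per 1000 ribosomal protein gene counts for RpL9, RpL30, RpL15, RpS12 and RpL32, 1 point a library with mean ± SD bars (n = 4), 9G8 RNAi in red and control in blue. The first 4 genes lie lower in every 9G8 RNAi library than in any control, while RpL32, at 6.66 ± 0.930 in 9G8 RNAi and 5.68 ± 0.472 in controls, overlaps.

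RpL32 (rp49), shown for its wide use as a qPCR reference in flies and so chosen outside the naming rule, was at 1507, 960.8, 1786 and 2429 CPM in 9G8 RNAi, against 1452, 1634, 1355 and 939.8 CPM in controls. Its log2 fold change was 0.31 (SE 0.37, edgeR adjusted p = 0.894), and its libraries spanned over 2-fold within 9G8 RNAi.

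At the other end, RpL28 was at 275.7, 281.4, 255.4 and 260.4 CPM in 9G8 RNAi, against 144.2, 196.1, 148.5 and 176.0 CPM in controls. The groups did not overlap, and unlike most main genes it was not low in library 9G8 RNAi 2. Its log2 fold change was 0.69 (SE 0.29, edgeR adjusted p = 0.320). RpS7 was at 361.1 ± 90.2 CPM in 9G8 RNAi and 230.3 ± 34.2 CPM in controls, also without overlap (log2 fold change 0.65, SE 0.32, edgeR adjusted p = 0.443). Per 1000 ribosomal protein counts both overlapped, with RpL28 at 1.21 ± 0.585 in 9G8 RNAi and 0.722 ± 0.169 in controls. RpL7A had the highest log2 fold change of a main gene, 0.78 (SE 0.35, edgeR adjusted p = 0.362), at 1145 ± 123.7 CPM in 9G8 RNAi and 666.9 ± 246.1 CPM in controls. RpS4 followed RpL28 with 0.67 (SE 0.35, edgeR adjusted p = 0.480), at 1330 ± 129.1 CPM in 9G8 RNAi and 838.1 ± 298.0 CPM in controls. RpL28, RpS7, RpL7A and RpS4 have 1139 to 1449 exon bases and belong to the long class.

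The stalk proteins did not pass. RpLP0 was at 4803 ± 1549 CPM in 9G8 RNAi and 5308 ± 1156 CPM in controls, and RpLP1 at 6032 ± 2153 CPM in 9G8 RNAi and 4340 ± 940.5 CPM in controls (log2 fold changes -0.14 and 0.48, edgeR adjusted p = 0.961 and 0.779). RpLP2 had a log2 fold change of 0.20 (edgeR adjusted p = 0.942). RpL40 and RpS27A, each made as a fusion with ubiquitin, had log2 fold changes of 0.14 and -0.22 (edgeR adjusted p = 0.962 and 0.929).

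Other genes of translation were read from lists. Rack1, a protein of the small subunit that the naming pattern leaves out, was at 1411, 998.2, 1573 and 1400 CPM in 9G8 RNAi, against 2527, 3444, 2705 and 1978 CPM in controls. The groups did not overlap, and the test did not pass (log2 fold change -0.99, SE 0.34, edgeR adjusted p = 0.178). Of 25 initiation factors tested, 1 rose and 0 fell, and 24 had a positive log2 fold change with a median of 0.35, against 0.995% called higher and 50.8% positive among all genes tested. Their mean log2 CPM was 6.27, 6.53, 6.14 and 5.62 in 9G8 RNAi, against 5.72, 5.70, 5.56 and 6.01 in controls. By this score the groups overlapped, with 9G8 RNAi 4 the lowest of its group. Their summed level did not overlap, at 3143 to 3671 CPM in 9G8 RNAi and 2312 to 2722 CPM in controls. That sum gives more weight to abundant genes and includes the gene that rose. The one that rose was eIF6 (2R:23849246-23850301, minus strand), which keeps the large subunit from joining the small one. It was at 497.6, 341.9, 988.9 and 473.0 CPM in 9G8 RNAi, against 85.7, 110.3, 132.0 and 114.6 CPM in controls. Every 9G8 RNAi library exceeded every control (log2 fold change 2.38, SE 0.40, edgeR adjusted p = 0.00691). With the gut score as a covariate its log2 fold change was 2.62 (edgeR adjusted p = 0.0307), in a fit that cannot separate this score from the genotype. It overlaps ytr on the same strand, so reads in the overlap cannot be assigned with certainty. Of 10 elongation and termination factors tested, 0 passed, with a median log2 fold change of 0.33. The most abundant, eIF-5A, was at 3744 ± 1149 CPM in 9G8 RNAi and 3954 ± 553.1 CPM in controls, and Ef1alpha48D at 2140 ± 1134 CPM in 9G8 RNAi and 1033 ± 399.1 CPM in controls (edgeR adjusted p = 0.365). Of 11 regulators of ribosomal protein synthesis tested, 0 passed, 9 had a positive log2 fold change and the median was 0.38. The most abundant were crc, the fly ATF4, with a log2 fold change of 0.26 (edgeR adjusted p = 0.891), and Thor, which binds the cap-binding factor, with 0.72 (edgeR adjusted p = 0.501). Xrp1, a transcription factor that flies induce when ribosomal proteins are out of balance, was named after its values were seen. It was at 108.0, 228.8, 133.6 and 102.9 CPM in 9G8 RNAi, against 81.5, 47.0, 37.7 and 88.0 CPM in controls, without overlap (log2 fold change 1.17, SE 0.40, edgeR adjusted p = 0.167).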

How the data were processed

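RNA-seq libraries of cuticle with fat body from adult females, 8 in all and 4 per genotype, were analysed. The deposited files hold raw read counts per gene, per the file headers in the layout of featureCounts; Trimmomatic 0.36, STAR 2.5.2b, featureCounts of Subread 1.5.2 and the build BDGP6 are named in the submitters' processing notes. Whether counting used strand, and what was done with multi-mapping reads, is not given in sources used here. A Length column, given per the file headers, equals the merged exon length of all 17411 genes and served to compare levels between genes.

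Counts were fitted in R 4.3.3 with edgeR 4.0.16 (TMM, filterByExpr by group, quasi-likelihood F test, no covariate), with Benjamini-Hochberg adjustment over 9846 genes and an adjusted p under 0.05 as the call. Log2 fold changes have control as the denominator, and SEs come from the F statistic. With a common biological coefficient of variation of 0.5, precision was limited by variation among libraries, and by counting error for genes with few counts. CPM were computed from the deposited counts with TMM factors. Paralog log2 ratios were tested over all 70 assignments of libraries with scipy 1.17.1. Pairs of a main gene with a paralog or related factor were recognised by symbol. The symbol does not give which copy is the main one, which was RpL37a in one pair and RpL34b in another. In each pair the copy taken as main was the more abundant by mean level. The low level of paralogs beside their main genes is therefore not a separate result. FlyBase identifiers were matched for 91 of the 93 genes, and RpL37a and RpL37b were matched by locus tag (CG9091 and CG9873). Marker scores are mean log2 CPM of a list. The fit was tested on simulated data.

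The genes, lists and naming rule were chosen with earlier results of these data known. Named were all paralog pairs, called genes, genes whose groups did not overlap, the 5 highest and 5 lowest levels per length, the 3 highest and 3 lowest log2 fold changes among main genes without a paralog, sta, the stalk genes, RpL40 and RpS27A, and from each list up to 4 with the smallest adjusted p if any passed, otherwise the 2 most abundant. The male germline list was added after the data were seen. Alternatives were RLE size factors, TMM without these genes, a mean CPM of at least 1, no filter on low counts, DESeq2 1.42.0, limma-voom (limma 3.58.1), a germline score covariate, the replicate number as a block, each library left out, prior counts of 0.5 and 5 for the ratios, no length correction and the share without mitochondrially encoded genes. Scaling to the ribosomal protein genes and a gut score covariate were added after the data were seen. Protein, promoter and transcript sequences were not used here, and 1 gene of the set is counted but not reported singly here.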

Additional observations from a re-analysis of the deposited data

Results flagged for a closer look

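Of the 82 groups of 4 libraries examined for the genes named, 6 held a library far from the other 3, where chance flags about 1 in 20 groups. RpL22 was at 545.6 CPM in control 2, far above the other controls. RpL7A was likewise high in control 2, at 1032 CPM, the library that came closest to the 9G8 RNAi levels of that gene. RpL27A and RpS28b were low in control 4, at 4715 and 1836 CPM. RpL30 and RpS12 were low in 9G8 RNAi 2, at 810.3 and 997.9 CPM, the library in which 71 of the 79 main genes were at their lowest for 9G8 RNAi.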

How the results depend on the processing

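Under RLE size factors, TMM without the ribosomal protein genes, a mean CPM of at least 1, no filter on low counts, limma-voom, the germline covariate and each library left out, 1 ribosomal protein gene (RpL37b) was called higher and 0 lower. The count called higher was 0 with the replicate block and with the gut covariate, and the count called lower was 1 with DESeq2 and 3 when scaled to the ribosomal protein genes. The replicate numbers did not pair the libraries (same-number correlations -0.57, -0.25, -0.02 and -0.59), and with the block RpL37b had a log2 fold change of 3.22 (edgeR adjusted p = 0.0526) and 141 of all genes were called, against 316 without it. All genes called were 523 with DESeq2 and ranged from 162 to 504 with a library left out (162 without 9G8 RNAi 2, 179 without 9G8 RNAi 3, 504 without 9G8 RNAi 4, 198 without control 1, 187 without control 2), and 474 with the germline covariate. The median log2 fold change of the ribosomal protein genes ranged from 0.00 to 0.31 with a library left out. The log2 ratio difference of RpS19b to RpS19a was -0.50, and -0.93 and -0.27 with prior counts of 0.5 and 5. The share of counts without mitochondrially encoded genes was 30.2% in 9G8 RNAi and 25.6% in controls, and the 90th over the 10th percentile of levels was 5.70 without length correction, by construction. With a library left out, the log2 ratio difference of RpS5b to RpS5a ranged from -0.89 (without control 1) to 1.63, that of RpS15Ab to RpS15Aa from -0.01 (without 9G8 RNAi 2) to 0.10 and that of RpL24-like to RpL24 from -0.20 to 0.03 (without 9G8 RNAi 2).

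For single named genes, 663 values kept direction and side, 4 passed that had not, 2 no longer passed and 51 changed sign, all of the last in genes that were not called; the cause was not tested. Scaled to the ribosomal protein genes, log2 fold changes turned to -0.02 for RpL23, -0.06 for RpL34b, -0.10 for RpS15Aa, -0.05 for RpS15Ab, -0.03 for RpS19a and -0.02 for RpS5a. With the gut covariate they were 0.04 for RpL41, -0.03 for RpS15Aa, -0.13 for RpS5a and 1.62 for RpS5b. Limma-voom gave -0.01 for RpL34b, -0.04 for RpS15Aa and 0.83 for RpS5b, the block -0.00 for RpL34b and -0.04 for RpS15Aa, no filter 0.03 for RpL41 and 0.05 for RpS14b, and the germline covariate 0.06 for RpS14b. With a library left out, values crossed 0 in RpL22 (-0.26 to 0.06), RpL23 (-0.05 to 0.33), RpL34b (-0.07 to 0.29), RpL37a (-0.00 to 0.37), RpL40 (-0.03 to 0.31), RpL41 (-0.23 to 0.20), RpLP0 (-0.32 to 0.01), RpS10b (-0.30 to 0.03), RpS14b (-0.20 to 0.18), RpS15Aa (-0.10 to 0.23), RpS15Ab (-0.10 to 0.22), RpS19a (-0.04 to 0.31), RpS28b (-0.30 to 0.05), RpS5a (-0.10 to 0.28) and RpS5b (-0.79 to 0.28). RpL37b ranged from 2.92 to 3.80 with a library left out (edgeR adjusted p from 0.00582 to 0.0226), and eIF6 stayed past the threshold in all alternatives (highest adjusted p = 0.0445). RpL9 ranged from -1.44 to -1.12 over all alternatives (adjusted p from 0.00865 to 0.451). The 6 paralogs and related factors not tested drew too few counts to pass the filter. Whether depth or absence of their transcripts accounts for this was not tested.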
